A study of Mus musculus with 6 samples.

Results

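The 6 genes of the CCN family were followed in B16F10 melanomas grown at 2 body sites. Members were chosen by gene symbol alone, as the rows Ccn1 to Ccn6 of a matrix of 45777 listed genes, and 6 of 6 were found, each as a single row under its current symbol. B16F10 is a pigmented mouse melanoma cell line. Its cells had been grafted into the hind footpad and into the flank skin. Total RNA of 3 footpad tumors and 3 flank skin tumors was sequenced, with 1 library per tumor. The labels give Foxn1-/- hosts, mice that lack a functional thymus and hence mature T cells, at an age of 8 weeks for both groups, and no treatment. The methods of the study describe B16F10 grafts in C57BL/6J mice as well and name no host for the sequenced tumors. They speak of tumor cells isolated from the implantation sites and name no way of separating them from host cells. The study describes grafting flank and footpad simultaneously and counts 3 mice for this comparison, so that the 6 tumors may be paired within mice. Whether replicate numbers stand for the same mouse at both sites is not given in the sources used here. The tests therefore take the 6 tumors as independent, except where a replicate block is named. The comparison asks which genes differ in expression between a weight-bearing site and the flank. Load cannot be told apart here from other differences between the sites.

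CCN proteins are secreted matricellular proteins, which sit in the extracellular matrix and signal through integrins and heparan sulfate proteoglycans rather than building the matrix itself. They are made of modules that resemble IGF-binding proteins, von Willebrand factor type C repeats, thrombospondin repeats and, at the end, a cystine knot that CCN5 lacks. Ccn1 (Cyr61) and Ccn2 (Ctgf) are textbook targets of the mechanically regulated coactivators YAP and TAZ, which bind DNA through TEAD factors, and both respond to TGF-beta and to serum. Ccn3 (Nov) often opposes Ccn2. Ccn4 (Wisp1) and Ccn5 (Wisp2) were first described as WNT1-inducible genes and are expressed by mesenchymal cells, and Ccn6 (Wisp3) is the least studied member.

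In GRCm38, the family lies on 4 chromosomes. Ccn1 occupies chromosome 3 from 145646971 to 145649985 on the minus strand. Ccn2 is on chromosome 10 from 24595442 to 24598683 on the plus strand, and Ccn6 is on the same chromosome from 39150970 to 39174376 on the minus strand. Ccn3 (54745910 to 54753762) and Ccn4 (66891369 to 66923201) are both on the plus strand of chromosome 15. Ccn5 is on chromosome 2 from 163820752 to 163833146 on the plus strand. The coding exons of the longest annotated coding transcript number 4 in Ccn5 and 5 in each of the other members, and its 251 codons compare with 348 to 379 codons in the others, all read from GENCODE. The longest run of identical bases between annotated transcripts of any pair of members was 28 bases, between Ccn2 and Ccn3, so that the members are not near-identical copies of each other. Ccn2 overlaps Gm15270 and Ccn6 overlaps the 3′ end of Tube1, both on the opposite strand. The RefSeq span of Ccn6 also covers D030034A15Rik, a noncoding gene on the same strand without a row of its own. The libraries were stranded, but whether the counting used the strand is not given in the sources used here. Gm15270 had from 0 to 6 reads per tumor against 1235 to 4529 for Ccn2.

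RefSeq promoter windows of GRCm38.p6 were found for only 2 of the 6 members, Ccn1 and Ccn6, and both are shown. The start used for Ccn6 lies within its RefSeq span, at 39163794. Each window is the stretch of 250 bases before the annotated start, read in the direction of the gene, with matches to searched motifs in capitals. The motifs were GGAATG (TEAD), TGANTCA (AP-1), CAGAC (SMAD) and the CArG box (SRF), searched on both strands.
Ccn1, chr3:145649986-145650235, minus strand: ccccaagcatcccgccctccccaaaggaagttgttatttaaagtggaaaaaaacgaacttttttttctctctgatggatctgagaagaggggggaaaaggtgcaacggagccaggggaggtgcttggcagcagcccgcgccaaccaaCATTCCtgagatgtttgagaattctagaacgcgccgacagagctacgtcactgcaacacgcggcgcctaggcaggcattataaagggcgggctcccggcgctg
Ccn6, chr10:39163795-39164044, minus strand: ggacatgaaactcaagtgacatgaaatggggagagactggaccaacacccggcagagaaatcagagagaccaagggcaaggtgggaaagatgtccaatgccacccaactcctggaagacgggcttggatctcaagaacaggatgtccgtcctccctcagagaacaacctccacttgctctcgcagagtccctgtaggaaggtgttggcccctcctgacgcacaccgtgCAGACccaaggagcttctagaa
The Ccn1 window held 1 TEAD match, on the strand opposite to the gene, from 103 to 98 bases before the start, and no other match. The Ccn6 window held 1 SMAD match, from 22 to 18 bases before the start, and no TEAD match. Of 32851 windows of the same length, 12.6% held the TEAD letters, 42.2% the SMAD letters, 6.75% the AP-1 letters and 1.47% a CArG box. These are matches of letters and not sites of binding.

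Library depth was between 46529649 and 66364366 reads on genes. Levels are given as CPM, the read count scaled to a common library size after TMM normalization in edgeR. Values per tumor follow the order of replicates 1, 2 and 3. A count of 3 reads, taken as the detection floor, equalled between 0.0438 and 0.0673 CPM, and this floor covers counting error only. All 6 members passed the filter on low counts, which left 17210 genes. To be called, a gene had to differ at least 2-fold with an adjusted p below 0.05, where p came from the quasi-likelihood test of edgeR and was adjusted by Benjamini-Hochberg over all genes tested. Standard errors (SE) are approximate, derived from each fold change with its F value, and the 95% intervals assume a normal error. Melanocytic markers, led by Tyrp1 and Dct, were abundant in every tumor, with 8 of 8 listed members tested and a summed level from 10067 to 18637 CPM in footpad and from 14814 to 25513 CPM in flank skin tumors, and 0 were called by edgeR or DESeq2, with 1 lower when p was left unadjusted, as were 2.82% of all genes tested. Footpad replicate 2 stood apart, with summed keratinocyte markers at 804 CPM against 22.4 to 68.9 CPM in the other 5 tumors, and skeletal muscle markers at 518 CPM against 6.43 to 63.7 CPM. Each member is therefore also given without this tumor.

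Across the family, 5 of 6 members had a positive fold change, as did 49.7% of all genes tested, and 1 had a negative one, with a median log2 fold change of 1.17 against -0.0042 over all genes tested. Ccn4 rose in footpad tumors and was the 1 member called, where 2.89% of all genes tested were called higher and 0.872% lower. Ccn4 and Ccn5 were higher in each footpad tumor than in any flank skin tumor, an order that 17.5% of all genes tested showed, and Ccn6 was lower in each, as were 14.9%. Ccn1, Ccn2 and Ccn3 overlapped between the sites. In these bulk samples, fewer cells of a type and less RNA per cell cannot be told apart.

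**Figure D1:**
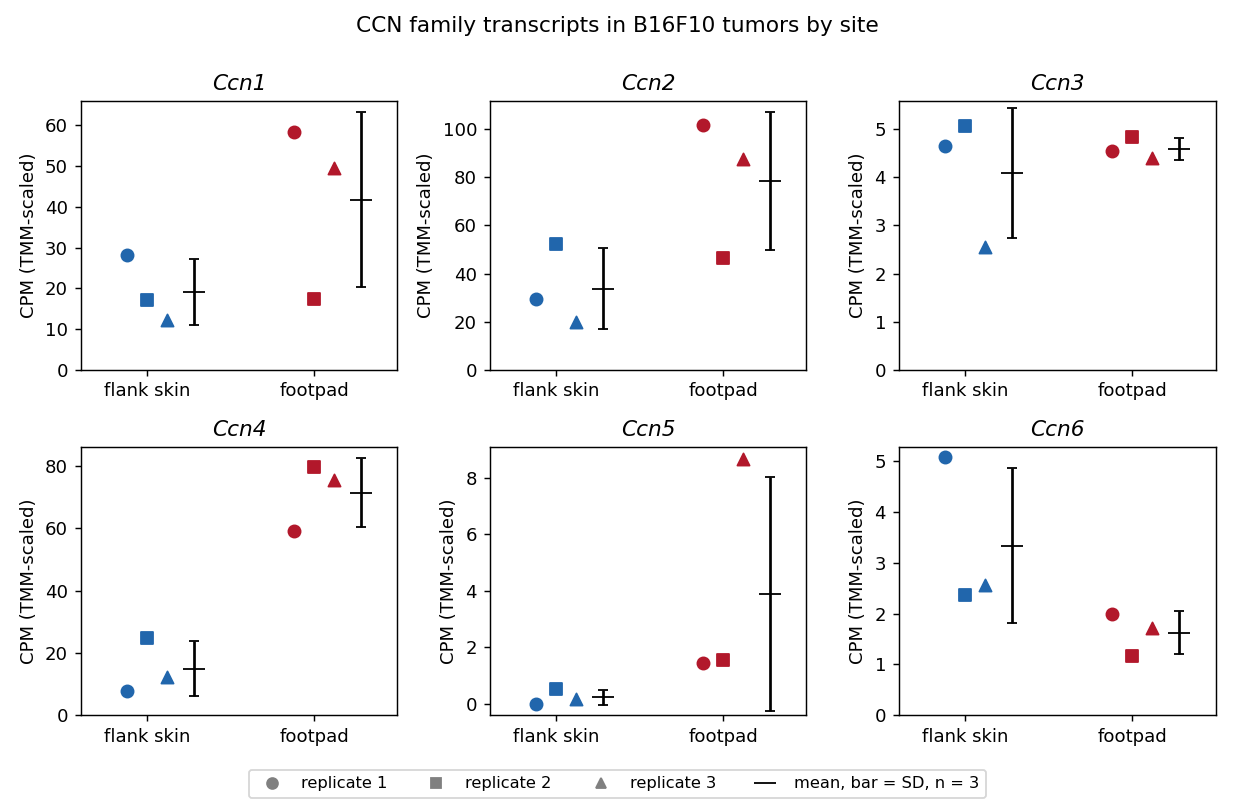
TMM-scaled CPM of each CCN member (vertical axes, linear) in the 3 flank skin tumors (blue) and the 3 footpad tumors (red), with marker shape for the replicate and a black bar for mean and SD. Ccn4 and Ccn5 separate upward and Ccn6 downward in footpad tumors, and footpad replicate 2 lies among the flank skin tumors for Ccn1 and Ccn2.

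Ccn4 encodes a matricellular protein that binds decorin and biglycan. Its level was 59.0, 79.7 and 75.6 CPM in the footpad, and 7.86, 24.7 and 12.4 CPM in the flank. The lowest footpad tumor lay well above the highest flank skin tumor, which was replicate 2. The means were 71.4 ± 11.0 CPM (SD, n = 3) and 14.99 ± 8.73 CPM. The log2 fold change was 2.25 (SE 0.39), a 4.76-fold rise, with an adjusted p of 0.0275 from edgeR. By p-value, Ccn4 ranked 345 among the genes tested. With footpad replicate 2 left out, Ccn4 was still called, at 2.16 with an adjusted p of 0.0428 from edgeR, where 4.74% of all genes tested were called in either direction. The call was lost without footpad replicate 1 (edgeR adjusted p = 0.0886), without footpad replicate 3 (0.116) and without flank replicate 3 (0.110). In these fits 26, 0 and 36 genes of the whole table were called higher, against 497 with all 6 tumors. The log2 fold change of Ccn4 stayed between 1.94 and 2.81 in the 6 fits that left out 1 tumor each.

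Ccn5 encodes the short member without the cystine knot. It had 64, 106 and 424 reads in the footpad and 0, 30 and 11 reads in the flank, which are 1.44, 1.55 and 8.66 CPM against 0, 0.513 and 0.176 CPM. Footpad replicate 3 was far above the other footpad tumors, and flank replicate 1 was below the detection floor. The log2 fold change was 4.07 (SE 1.24), and the adjusted p was 0.0981 from edgeR. With limma on log2(FPKM + 1), which shrinks changes of low genes, it was 1.19, below the 1.97 of Ccn4. The SD exceeded the mean in each group, at 3.88 ± 4.14 CPM (SD, n = 3) in footpad and 0.230 ± 0.261 CPM in flank skin tumors. Without footpad replicate 3 the log2 fold change was 2.69, without flank replicate 2 it was 5.40, and without flank replicate 1 it was 3.48. Without footpad replicate 2 it was 4.44 (adjusted p = 0.0823 from edgeR).

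Ccn2, or connective tissue growth factor, promotes matrix production by fibroblasts. It was at 101.7, 46.5 and 87.5 CPM in the footpad, and at 29.3, 52.2 and 19.7 CPM in the flank. Footpad replicate 2 lay below flank replicate 2, and the remaining footpad tumors lay above all flank skin tumors. The mean was 78.5 ± 28.7 CPM (SD, n = 3) against 33.7 ± 16.7 CPM. The site difference of 1.22 on the log2 scale (SE 0.40) did not pass with edgeR (adjusted p = 0.117), whereas DESeq2 gave 1.22 with an adjusted p of 0.0145, where DESeq2 called 6.73% of all genes tested higher. Without footpad replicate 2 the log2 fold change was 1.48 (edgeR, adjusted p = 0.0635), and leaving out flank replicate 2 gave 1.67 (adjusted p = 0.0664). It fell to 0.99 without footpad replicate 1 (edgeR, adjusted p = 0.318) and to 0.94 without flank replicate 3 (adjusted p = 0.268).

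Ccn1, an integrin ligand with roles in angiogenesis and wound repair, was at 58.3, 17.4 and 49.6 CPM in the footpad. In flank replicates 1, 2 and 3 it was at 28.1, 17.1 and 12.1 CPM. Footpad replicate 2 was again within the range of the flank skin tumors, next to flank replicate 2. The log2 fold change was 1.13 (SE 0.47, adjusted p = 0.187 from edgeR and 0.0583 from DESeq2). Without footpad replicate 2 it was 1.49 with an adjusted p of 0.0501, the nearest that a fit with edgeR brought Ccn1 to the threshold. Over the 6 fits that left out 1 tumor each, it ranged from 0.81 to 1.51. The highest adjusted p of these fits was 0.455 (edgeR), without footpad replicate 1. The approximate 95% interval over all 6 tumors, from 0.21 to 2.05, and that of Ccn2, from 0.43 to 2.01, covered much the same range.

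Ccn3, which is known to counteract Ccn2 in several tissues, varied least. Its level was 4.53, 4.83 and 4.39 CPM in footpad tumors and 4.66, 5.06 and 2.56 CPM in flank skin tumors, in the order of the replicates. All 3 footpad tumors lay within the flank range. The coefficient of variation was 4.87% among footpad tumors and 32.9% among flank skin tumors, where flank replicate 3 was low. The log2 fold change was 0.16 (SE 0.31, approximate 95% interval from -0.44 to 0.77, adjusted p = 0.774 from edgeR), so that the interval did not reach a 2-fold change in either direction. Without footpad replicate 2 it was 0.12 (edgeR, adjusted p = 0.861), and leaving out flank replicate 3 gave -0.090.

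Ccn6 was the 1 member with a negative fold change. It was at 1.998, 1.17 and 1.71 CPM in the footpad, and at 5.09, 2.36 and 2.56 CPM in the flank. The groups did not overlap, and flank replicate 1 stood above the other flank skin tumors. The log2 fold change was -1.04 (SE 0.41, adjusted p = 0.166 from edgeR and 0.0984 from DESeq2). Without flank replicate 1 it was -0.60, without footpad replicate 2 it was -0.85, and with limma on log2(FPKM + 1) it was -0.25. Tube1, which encodes epsilon-tubulin and overlaps the end of Ccn6 on the other strand, was likewise lower in each footpad tumor, at 5.32, 4.70 and 5.53 CPM against 9.33, 8.09 and 7.40 CPM in flank skin tumors (-0.67 on the log2 scale, edgeR adjusted p = 0.102). The ratio of Ccn6 to Tube1 reads, 0.376, 0.248 and 0.310 in footpad and 0.545, 0.292 and 0.346 in flank skin tumors, overlapped between the sites. What part reads of Tube1 or of D030034A15Rik have in the Ccn6 counts was not tested.

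**Figure D2:**
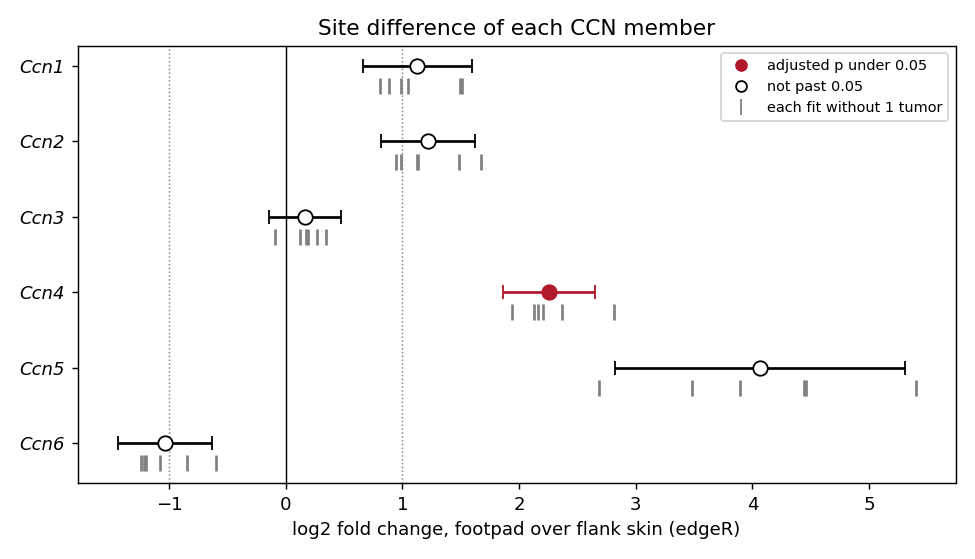
Log2 fold change of footpad over flank skin tumors from edgeR (horizontal axis) for each CCN member (rows), with SE bars, a filled symbol where the adjusted p was under 0.05, gray ticks for the 6 fits without 1 tumor each, and dotted lines at a 2-fold change. Ccn4 at 2.25 is the filled symbol, Ccn5 has the widest bar and ticks from 2.69 to 5.40, and the ticks of Ccn3 lie on both sides of 0.

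Levels of different members were compared as FPKM, the authors' value per transcript length and depth. In footpad tumors the order by mean was Ccn2 (28.7 ± 9.13 FPKM, SD, n = 3), Ccn1 (18.0 ± 8.60), Ccn4 (12.9 ± 2.86), Ccn5 (1.99 ± 2.17), Ccn3 (1.71 ± 0.175) and Ccn6 (0.181 ± 0.0197). The ranges of Ccn2 and Ccn1 overlapped, as did those of Ccn1 and Ccn4 and those of Ccn5 and Ccn3. The gaps between Ccn4 and Ccn5 and between Ccn3 and Ccn6 were free of overlap. In flank skin tumors the order was Ccn2 (12.8 ± 7.31 FPKM), Ccn1 (8.28 ± 3.01), Ccn4 (2.75 ± 1.82), Ccn3 (1.53 ± 0.557), Ccn6 (0.409 ± 0.176) and Ccn5 (0.121 ± 0.140). There Ccn1 and Ccn4 were separate, and Ccn2 overlapped Ccn1, as Ccn4 did Ccn3. Ccn2 was thus the most abundant member by mean at both sites, although Ccn1 exceeded it in flank replicate 1, with 11.3 against 9.97 FPKM. The place and the share of Ccn6 rest on the length behind its FPKM, which counts and FPKM together put at 7424 to 9719 bases, while its annotated GENCODE transcript has 1419 bases.

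Summed over the family, CCN transcripts were at 70.3, 44.1 and 75.7 FPKM in the footpad and at 24.8, 36.7 and 16.2 FPKM in the flank. Each footpad tumor lay above each flank skin tumor (63.4 ± 16.9 against 25.9 ± 10.3 FPKM, SD, n = 3; p = 0.1 in a two-sided exact permutation test, which cannot go lower with 3 against 3 tumors). Ccn1 and Ccn2 together made up most of the sum at both sites. Ccn4 made up 13.7%, 34.1% and 18.4% of the sum in the footpad and 5.14%, 13.1% and 13.6% in the flank. Its lowest footpad share was close to its highest flank share. The share of Ccn3 was 2.91% ± 1.21 in footpad and 5.97% ± 0.420 in flank skin tumors, and that of Ccn6 was 0.296% ± 0.0578 and 1.77% ± 0.900, each without overlap. From CPM, without the length, the share of Ccn6 was 0.802% and 4.75%. For Ccn3, Ccn4, Ccn5 and Ccn6 the exact permutation p was 0.1, or 0.15 after adjustment over the 6 members, and the shares of Ccn1 and Ccn2 overlapped between the sites.

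**Figure D3:**
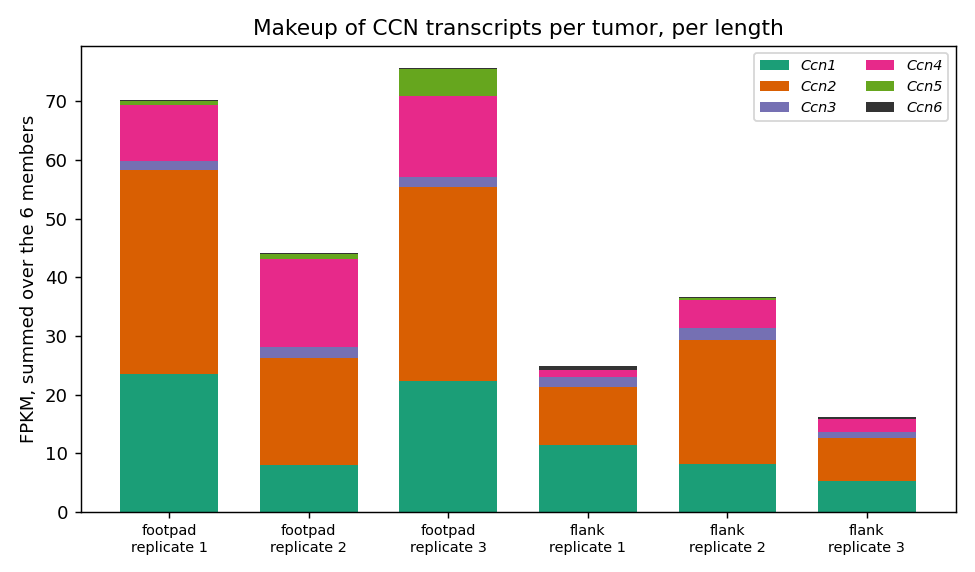
Stacked FPKM of the 6 CCN members (vertical axis) in each of the 6 tumors (bars), with colors for members. The footpad bars reach 70.3, 44.1 and 75.7 FPKM against at most 36.7 FPKM in flank skin tumors, and footpad replicate 2 has the smallest Ccn1 and Ccn2 segments and the largest Ccn4 segment of the footpad tumors.

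Whether the site difference of 1 member differed from that of another was examined with the log2 ratio of their CPM within each tumor, for all 15 pairs. In 8 of the 15 pairs the 2 sites did not overlap, and for each of these the two-sided exact permutation test gave 0.1, the smallest p possible, or 0.188 after adjustment over the pairs. All 5 pairs with Ccn6 were among them, and pairs that share a member are not independent. The Ccn3/Ccn6 log2 ratio separated narrowly, with a lowest footpad value of 1.18 against a highest flank value of 1.10. How often ratios of other genes separate the sites was not computed, so that the count of pairs is a description. Ratios with Ccn5 rest on the prior count, since flank replicate 1 had 0 reads. The Ccn4/Ccn6 log2 ratio was 4.87, 6.07 and 5.45 in the footpad and 0.63, 3.38 and 2.27 in the flank. The Ccn3/Ccn4 log2 ratio was also well separated, at -3.70, -4.04 and -4.10 against -0.75, -2.28 and -2.27. By contrast, the Ccn1/Ccn2 log2 ratio of -0.80, -1.42 and -0.82 in footpad tumors fell within the flank range of -0.06, -1.61 and -0.70 (difference of means -0.22, exact permutation p = 0.8). The Ccn1/Ccn4 ratio overlapped as well, so that a larger rise of Ccn4 than of Ccn1 was not separated from the spread between tumors.

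The tumors did not rank alike for the members. Footpad replicate 1 had the highest level of Ccn1 and Ccn2, footpad replicate 2 of Ccn4, footpad replicate 3 of Ccn5, flank replicate 2 of Ccn3 and flank replicate 1 of Ccn6. Flank replicate 3 was the lowest for Ccn1, Ccn2 and Ccn3, and flank replicate 1 for Ccn4 and Ccn5. Flank replicate 2 had the highest Ccn2, Ccn3, Ccn4 and Ccn5 among flank skin tumors. Likeness between members was measured as the root mean square difference of log2 CPM over the 6 tumors, after centering each gene on its mean. Ccn1 and Ccn2 were the closest pair (0.50), followed by Ccn2 and Ccn3 (0.68), Ccn1 and Ccn3 (0.75) and Ccn3 and Ccn6 (0.76). Ccn5 and Ccn6 were the furthest apart (3.37). Although Ccn1 and Ccn2 were closest within the family, 348 of 13597 other genes were closer to Ccn1 than Ccn2 was. The measure also depends on how far a gene moves, and Ccn3 moved little. Of the same genes, 11504 were closer to Ccn3 than Ccn2 was.

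Genes outside the family with the most similar pattern to each member were found by the same measure among the 13597 genes with a mean of at least 1 CPM. For Ccn1 these were Rnd1 (0.11), Sema7a, a membrane-anchored semaphorin that binds integrins (0.12), and Adamtsl1, a secreted matrix protein (0.15). Rnd1, at 4.83, 1.53 and 4.23 CPM in footpad and 2.24, 1.69 and 0.959 CPM in flank skin tumors, was also low in footpad replicate 2. For Ccn2 they were Slfn5 (0.12), Adcy4, an adenylate cyclase (0.18), and Tnfrsf21, a death receptor (0.21). For Ccn3, whose level barely moved, they were H2-T10, Nhs and LOC115486953 (each 0.12).

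The genes most like Ccn4 were Plxdc2 (0.16), Ptk7, a receptor of the noncanonical WNT pathway (0.16), and Colec12, a scavenger receptor of stromal cells (0.17). Ptk7 was at 14.3, 15.5 and 15.9 CPM in footpad and 1.69, 4.12 and 2.64 CPM in flank skin tumors, in the same order of flank replicates as Ccn4. These 3 genes passed the same test (adjusted p = 0.0363, 0.0157 and 0.0414 from edgeR), which is no separate result, since they were chosen for likeness to a called gene. For Ccn5 the nearest were Cxcl5, a neutrophil-attracting chemokine (0.56), Pak1 (0.67) and Scara3 (0.79), each with 0 reads in flank replicate 1, as for Ccn5. For Ccn6 they were Ddit4, a stress- and hypoxia-induced inhibitor of mTOR (0.11), Ankzf1 (0.12) and Pfkl, a phosphofructokinase of glycolysis (0.13). Ddit4, at 28.5, 18.8 and 22.5 CPM in footpad and 74.7, 31.9 and 40.6 CPM in flank skin tumors, followed Ccn6 in the order of all 6 tumors.

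Markers of other cell types that a tumor could hold were read in the same libraries. Of 12 fibroblast markers, all tested, 9 were called higher, where 2.89% of all genes tested were. All 12 were higher in each footpad tumor than in any flank skin tumor, where 17.5% of all genes were. None was at 0 in every tumor, and Dpt was at 0 in flank replicates 1 and 3. Their summed level was 2884, 2883 and 3925 CPM in the footpad and 102, 459 and 127 CPM in the flank. Flank replicate 2 had the highest sum among flank skin tumors for fibroblast, endothelial, macrophage, neutrophil, adipocyte and skeletal muscle markers, and also the highest Ccn2, Ccn3, Ccn4 and Ccn5. Log2 fold changes in the fibroblast list ranged from 1.59 to 4.32, with Col3a1 and Col1a2, the most abundant, at 4.08 and 3.74. Endothelial markers were at 321 to 365 CPM in footpad and 176 to 218 CPM in flank skin tumors, with 4 of 10 called higher (Pecam1, Tie1, Emcn and Robo4). Pericyte and smooth muscle markers overlapped between the sites (100 to 183 against 61.9 to 121 CPM), with 1 of 7 tested, Cspg4, called higher. Macrophage markers were at 104.03 to 126 CPM against 24.5 to 103.58 CPM, separate by a narrow margin, with 1 of 8, Cd68, called higher.

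Neutrophil markers, led by S100a8 and S100a9, had 0 of 6 tested called by edgeR, 1 by DESeq2 and 6 when p below 0.05 was taken without adjustment, with a 2-fold change, where DESeq2 called 6.73% of all genes tested higher and 9.16% were higher at the unadjusted p. Their sum was 341 and 167 CPM in footpad replicates 1 and 3, against 6.61 CPM in footpad replicate 2. These are the footpad tumors with high and with low Ccn1 and Ccn2. Flank skin tumors had 4.22 to 28.8 CPM. Of 10 keratinocyte markers, 0 were called by edgeR and 9 passed at the unadjusted p, and DESeq2 called 3 of the 6 for which it gave an adjusted p. Of 9 skeletal muscle markers tested, 0 were called by edgeR and 0 passed at the unadjusted p, and DESeq2 called 0 of the 3 for which it gave an adjusted p. Schwann cell markers were at 389 to 433 against 396 to 455 CPM (1 of 8, Pmp22, called higher), adipocyte markers at 24.6 to 31.9 against 33.5 to 52.0 CPM (0 of 5 called by edgeR, DESeq2 or at the unadjusted p), and cartilage, bone and tendon markers at 16.7 to 19.6 against 38.7 to 65.8 CPM (1 of 5, Col2a1, called lower). Over all genes tested, edgeR called 2.89% higher and 0.872% lower. For all of these lists, their part in the levels of the CCN genes was not tested.

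**Figure D4:**
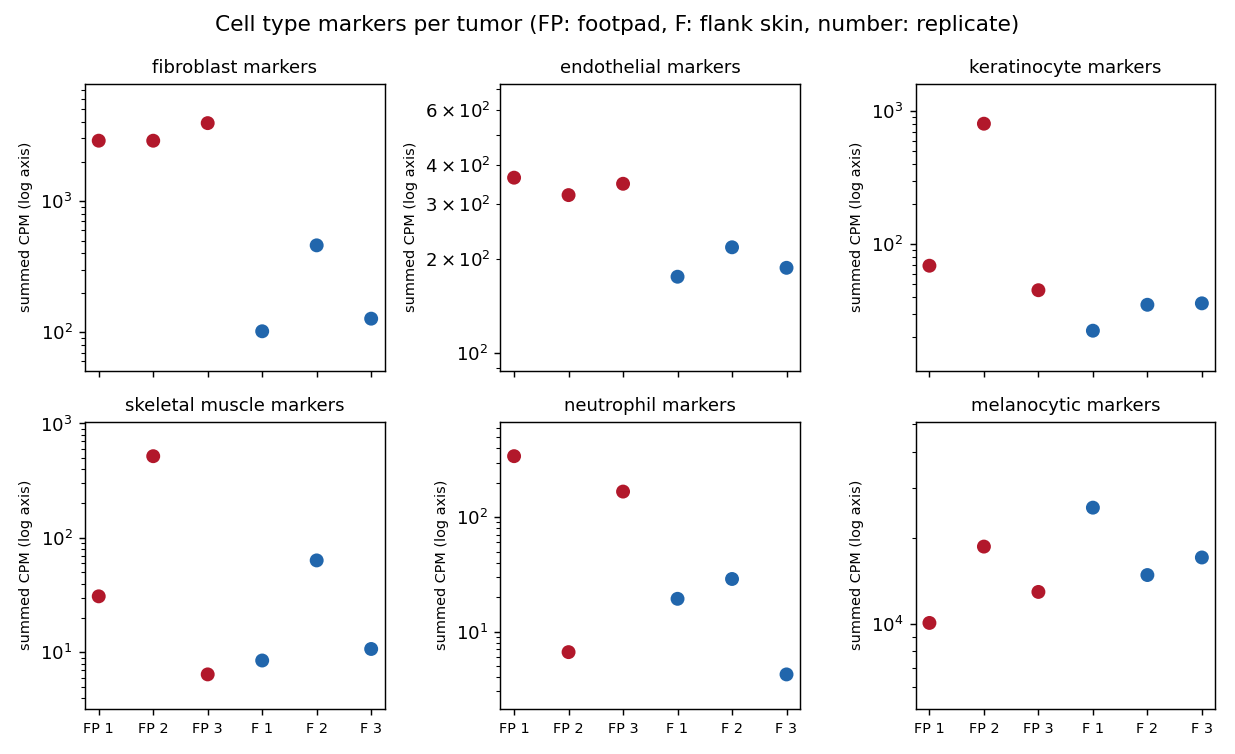
Summed CPM of 6 lists of cell type markers (vertical log axes) in each tumor, red for footpad (FP) and blue for flank skin (F). Fibroblast and endothelial markers separate the sites, keratinocyte and muscle markers peak in footpad replicate 2, and neutrophil markers are high in footpad replicates 1 and 3.

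Genes that act with the family were described from lists written with earlier results of these data known, so that their counts are descriptions. Among 17 receptors and coreceptors of CCN proteins, all tested, 2 were called higher and 0 lower, against 2.89% and 0.872% of all genes tested, with a median log2 fold change of 0.65. Itga5, the alpha chain of the fibronectin receptor, rose by 1.75 (adjusted p = 0.0165 from edgeR), from 27.6, 30.4 and 22.9 CPM in flank skin to 125, 70.2 and 76.7 CPM in footpad tumors. Itgb2, the beta chain of leukocyte integrins, rose by 2.28 (adjusted p = 0.0442). Itgam, its partner in the Mac-1 receptor that binds CCN1 and CCN2 on myeloid cells, overlapped between the sites. The log2 fold change of Itgam, 2.85, did not pass with edgeR (adjusted p = 0.102). It passed with DESeq2 (adjusted p = 0.0436), where DESeq2 called 6.73% of all genes tested higher. Fgfr2 had 1.87 (adjusted p = 0.391), with its highest level in footpad replicate 2. The widely expressed chains Itgav and Itgb1, at mean levels of 300.3 and 784 CPM in footpad tumors, had log2 fold changes of 0.02 and -0.10. Of the 17 genes, 7 were higher in each footpad tumor than in any flank skin tumor, as were 17.5% of all genes tested. In the other direction, 1 was lower in each footpad tumor, as were 14.9%.

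Of 14 genes for growth factors and matrix proteins that CCN proteins bind, 12 were tested, 6 were called higher and 0 lower, against 2.89% and 0.872% of all genes tested, and the median log2 fold change was 2.35. Fibronectin (Fn1) rose from 236, 262 and 190.4 CPM in flank skin to 1420, 833 and 998 CPM in footpad tumors (log2 fold change 2.24, adjusted p = 0.0105 from edgeR). Decorin (Dcn) and biglycan (Bgn), the proteoglycans bound by CCN4, rose by 3.56 and 3.30 on the log2 scale, and Dcn is also in the fibroblast list. Hspg2 (perlecan), Bmp2 and Fgf2 rose by 1.29, 3.30 and 2.83. Slit3 and Bmp4 had 2.46 and 2.75 and did not pass (adjusted p = 0.159 and 0.148 from edgeR). Vegfa, an angiogenic factor that CCN2 binds, had a log2 fold change of -0.63 (adjusted p = 0.262).

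Among 21 inducers of Ccn1 and Ccn2, 3 were called higher and 0 lower (2.89% and 0.872% over all genes tested), with a median log2 fold change of 0.40. The called genes were Lpar1 and F2r, receptors for lysophosphatidic acid and thrombin, and Tead4, with log2 fold changes of 3.66, 1.55 and 1.31 (adjusted p = 0.0454, 0.0203 and 0.0212 from edgeR). Endothelin 1 (Edn1) and its receptor Ednra had 2.59 and 1.95 and did not pass with edgeR (adjusted p = 0.0986 and 0.0525). With DESeq2 both passed (adjusted p = 0.00707 and 0.00068), where it called 6.73% of all genes tested higher. Of the coactivators themselves, Yap1 was at 105, 109 and 106 CPM in footpad and 111, 125 and 147 CPM in flank skin tumors, lower in each footpad tumor but without passing the test (log2 fold change -0.26, adjusted p = 0.284). Wwtr1, which encodes TAZ, overlapped between the sites, at a log2 fold change of -0.04 (adjusted p = 0.890). Tead2 had a log2 fold change of -0.93 (edgeR adjusted p = 0.0154), short of a 2-fold change.

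Of 20 YAP/TAZ targets outside the family, 19 were tested, 2 were called higher and 0 lower (2.89% and 0.872% over all genes tested), and the median log2 fold change was 0.59, below the 1.13 of Ccn1 and the 1.22 of Ccn2. Myof, which encodes a membrane repair protein, and Arhgef17 rose by 1.36 and 1.58 (adjusted p = 0.0321 and 0.0271 from edgeR). Nuak2 and Ccdc80 had 3.58 and 1.91 and did not pass with edgeR (adjusted p = 0.0713 and 0.061). With DESeq2 both passed (adjusted p = 0.0012 and 0.000404), where it called 6.73% of all genes tested higher. Ankrd1, another widely used YAP target, was at a mean of 0.932 CPM in footpad and 0.453 CPM in flank skin tumors, with overlap (log2 fold change 1.03, edgeR adjusted p = 0.329). Targets of WNT and beta-catenin were mostly low, with 6 of 12 tested, 1 called higher (2.89% over all genes tested) and a median of 0.19. Nkd2, an antagonist of the pathway, rose by 2.84 (adjusted p = 0.043), Axin2, its standard readout, had 0.19 (adjusted p = 0.742), and Apcdd1 and Lgr5 had 1.93 and -1.24 (adjusted p = 0.192 and 0.187). Of 10 proteases that cut CCN proteins, 5 were tested and 0 were called by edgeR, against 2 by DESeq2 (6.73% over all genes tested) and 2 when p was left unadjusted (9.16%). Mmp9 and Mmp3 had log2 fold changes of 3.86 and 2.13 (edgeR adjusted p = 0.112 and 0.392). With DESeq2, Mmp9 passed (adjusted p = 0.0313) and Mmp3 did not (0.424). Both were low in footpad replicate 2, at 0.583 and 2.16 CPM.

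**Figure D5:**
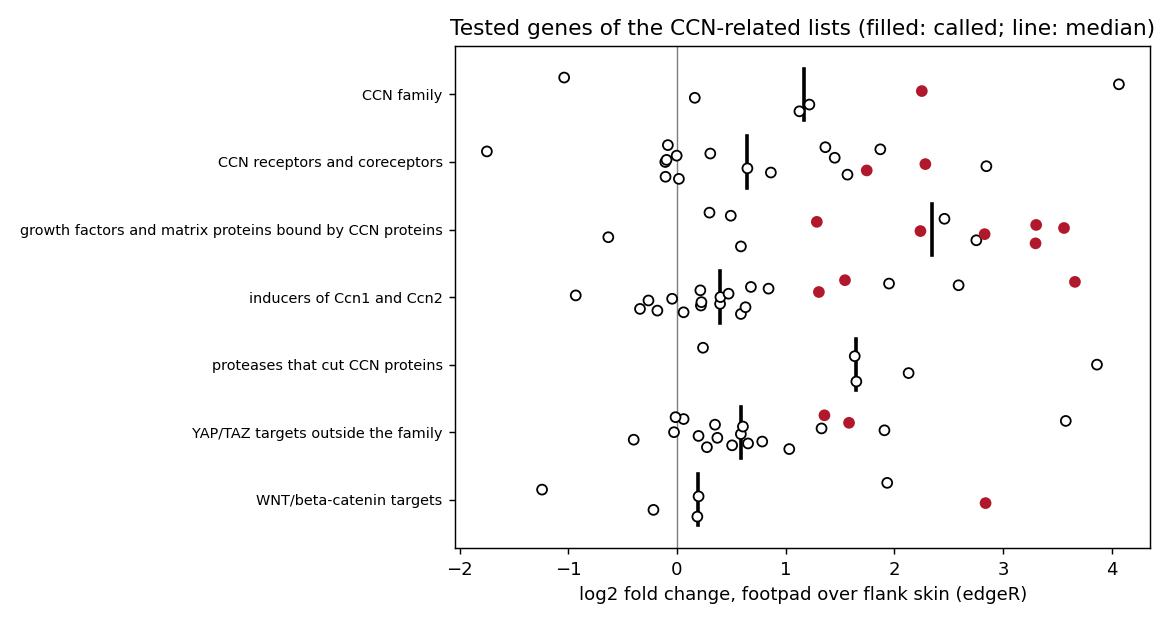
Log2 fold change of footpad over flank skin tumors from edgeR (horizontal axis) for each tested gene of the CCN family and of 6 related lists (rows), filled red where called, with a black line at the median of the list. The median of the bound proteins, 2.35, lies above that of the CCN family, 1.17, and those of the inducers and of the WNT targets lie at 0.40 and 0.19.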

How the data were processed

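RNA-seq of 6 B16F10 tumors, 3 per site, was analysed. The authors trimmed reads with Trimmomatic, aligned them to mm10 with HISAT2 2.1.0 and deposited whole read counts per RefSeq gene, not normalized, and FPKM values. The counting program is not given in the sources used here. Groups and replicate numbers came from the sample labels. Of 45777 genes, 45679 matched RefSeq GRCm38.p6, whose coordinates are given; exons came from GENCODE.

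Counts were tested in R 4.3.3 with edgeR 4.0.16 (TMM, filterByExpr, glmQLFit, glmQLFTest), and with DESeq2 1.42.0, limma 3.58.1 on log2(FPKM + 1) and log2(FPKM + 0.1), other scalings and filters, a replicate block and each tumor left out as alternatives. The fits were tested on simulated data. CPM on a log2 scale used a prior count of 1. Replicates of a site differed by more than counting noise (chi-square per gene from 46.5 to 403). The study gives 3 mice for this comparison.

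The members and lists were chosen with earlier results of these data known. Named were the 6 members, in each list of related genes the genes called and the 2 largest other changes, in marker lists the 2 most abundant members where described, and the 3 genes most like each member. Other genes (Itgav, Itgb1, Vegfa, Yap1, Wwtr1, Tead2, Ankrd1, Axin2, Tube1, Gm15270, Tie1, Emcn, Robo4, Cspg4, Cd68 and Pmp22) were chosen after their values were seen. The proteins of the members, and the promoters of 4 of them, were not analysed here. Figures used Python 3.11.15 and matplotlib 3.10.9.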

Additional observations from a re-analysis of the deposited data

How the results depend on the processing

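Of 83 values of the 6 members under the alternatives, 77 kept their direction and their side of the threshold. For the 5 members not called in the main fit, staying uncalled counted as kept. Ccn4, the 1 member called, kept its call under 10 alternatives and lost it under 4. With DESeq2, Ccn2 also passed (log2 fold change 1.22), so that 2 members were called. The replicate number as a block gave a log2 fold change of 2.40 for Ccn4 with an adjusted p of 0.0555, and 0 members and 0 higher and 0 lower genes were called by edgeR, against 1378 and 413 genes with p below 0.05 before adjustment and a 2-fold difference. Whether the numbers pair the tumors is not given in the sources used here. Deviations of same-numbered tumors from their site means correlated at 0.05, -0.10 and -0.11. Those of differently numbered tumors correlated at -0.20 to 0.26, so that these values cannot decide it. Ccn5 could not be tested with the filter of 10 counts in every tumor. Without 1 tumor each, log2 fold changes ranged from 0.81 to 1.51 for Ccn1 and from 0.94 to 1.67 for Ccn2. For Ccn3 they ranged from -0.090 to 0.34 and for Ccn4 from 1.94 to 2.81. Between 0 and 1 members were then called higher. The difference in the Ccn2 share ranged from -6.52 to 2.11 percentage points, and that in the Ccn1/Ccn2 log2 ratio from -0.63 to 0.14.

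Over all genes, 497 were called higher and 150 lower. DESeq2 called 1154 and 352, limma on log2(FPKM + 1) called 271 and 95, and leaving out 1 tumor gave 0 to 639 higher and 0 to 197 lower genes. The lowest counts, 0 and 0, came without footpad replicate 3, where 1459 and 420 passed when p was left unadjusted. DESeq2 called 6 receptors, 5 inducers, 2 proteases and 5 YAP/TAZ targets. The filter of 10 counts in every tumor gave 4 receptors, 0 WNT targets and a median of 1.79 for bound proteins, limma on log2(FPKM + 1) gave 1 YAP/TAZ target, 0 WNT targets and medians of 0.36 (receptors), 0.59 (bound proteins) and 0.35 (YAP/TAZ targets), and limma on log2(FPKM + 0.1) gave 2 WNT targets and a median of 1.55 for bound proteins. With no filter on low counts the WNT median was 1.92. With the block, 0 receptors, bound proteins, inducers, YAP/TAZ or WNT targets were called. Without 1 tumor each, calls ranged from 0 to 3 for receptors, 0 to 7 for bound proteins, 0 to 4 for inducers, 0 to 1 for proteases, 0 to 3 for YAP/TAZ and 0 to 1 for WNT targets, and medians from 0.29 to 0.81 for receptors 0.27 to 0.55 for inducers and 1.24 to 3.65 for proteases. The pseudocount and the filters change which low genes enter or how far they move by construction, and for the other settings the cause was not tested.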

Other observations

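The counts and FPKM values of 1 gene in 1 tumor together imply the transcript length that the FPKM used. Divided by that of Ccn1 in the same tumor, this length was nearly constant between tumors for Ccn2 (1.18 to 1.19) and Ccn3 (1.175 to 1.181). For Ccn6 the ratio was 4.10, 4.09 and 4.09 in footpad replicates 1 and 3 and flank replicate 2, and 3.39, 3.37 and 3.28 in footpad replicate 2 and flank replicates 1 and 3. The implied length was 7424 to 9719 bases, while the 1 annotated Ccn6 transcript of GENCODE has 1419 bases, and the deposited row lists 4 RefSeq transcripts. The RefSeq span of Ccn6 also covers D030034A15Rik, a noncoding gene on the same strand from 39169300 to 39173252 on chromosome 10, which was not found as a row of its own. Which transcripts the Ccn6 reads came from was not tested.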
